A study of Danio rerio with 12 samples.

Results

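Genes of the major histocompatibility complex (MHC) class II pathway were followed in 12 libraries from sorted cells of adult zebrafish gill and intestine. The genes are 2 invariant chain genes, a class II chain gene, 3 regulators of class II transcription and an endosomal reductase. They were chosen by symbol, and each is reported whatever its values. Of 8 listed symbols, 7 matched a row among the 32520 genes of the deposited tables: cd74a (ENSDARG00000009087), cd74b (ENSDARG00000036628), mhc2dab (ENSDARG00000079105), ciita (ENSDARG00000090851), rfx5 (ENSDARG00000063258), RFXAP (ENSDARG00000076891) and ifi30a (ENSDARG00000056378). The eighth, mhc2a, matched no row and is not analysed here. RFXAP was too low for the filter, so 6 genes were tested. The other chain genes of the pathway are described beside them: 18 identifiers carry a cd74 or mhc2 symbol, of which 13 were tested.

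All fish were adult and carried a sox17:CreERT2 transgene together with an mpeg1:loxP-DsRedx-loxP-GFP reporter. The mpeg1 promoter, a macrophage promoter, drives the reporter in every sorted cell, and cells in which the Cre recombinase under the endodermal sox17 promoter has acted switch from DsRedx to GFP. The 4 groups, with 3 libraries each, are gill GFP cells and intestine GFP cells, called metaphocytes in the labels, and gill DsRedx cells and intestine DsRedx cells, called macrophages there. Each library was made from 30 to 50 sorted cells by SMART-seq2, a full-length method without molecular identifiers. Amplified copies of the same molecule are thus not told apart. The fold bounds given below take in counting error only, and not the further spread from amplifying so few cells. The labels do not say whether the libraries of a group came from separate fish, and p-values therefore measure the spread between these libraries, which may be technical. Whether the Cre was induced by a ligand is not given there either.

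Class II molecules are pairs of an alpha and a beta chain that carry peptides from endosomes to the cell surface, where CD4 T cells read them. The invariant chain, CD74, binds newly made class II pairs, keeps their groove closed and steers them to endosomes, where cathepsins cut it away. In mammals CIITA is the transactivator that sets class II and CD74 transcription, and it works on promoters bound by the RFX complex, made of RFX5, RFXAP and RFXANK. Macrophages and dendritic cells are known for high class II levels, and some epithelial cells also carry class II molecules.

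Library totals lay between 5895669 and 12365233. Gene detection moved with the groups, in genes with a count: 9931 to 11881 in gill GFP, 9506 to 10224 in gill DsRedx, 12802 to 13278 in intestine GFP and 11312 to 11767 in intestine DsRedx. The sorted populations matched their labels in part by marker genes. Of 19 tested macrophage marker identifiers, 15 were lower in gill GFP than in gill DsRedx cells and 13 were lower in intestine GFP than in intestine DsRedx cells. Of 11 tested epithelial markers, 5 and 6 were higher in GFP cells. By the edgeR test described below, the share called over all tested genes was 4.59% between the gill colors and 4.12% between the intestine colors. The leukocyte gene ptprc was at 1.41 to 2.13 CPM (counts scaled to a library size of 1e+06) in gill GFP and 353 to 588 CPM in gill DsRedx libraries, so the GFP cells are described below by their color. Reads of DsRedx genes were present at a low level in GFP libraries, and the reverse. In GFP libraries ptprc stood at a mean of 0.4% of the DsRedx level in gill and 0.562% in intestine, and the claudin gene cldn3c in DsRedx libraries at 0.957% and 1.03% of the GFP level.

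The invariant chain genes were read in every library, and the GFP cells of intestine held the lowest level of both. cd74a was the more abundant. Its values were 7485, 10345 and 14948 CPM in gill GFP cells and 26522, 28254 and 32345 CPM in gill DsRedx cells. In intestine they were 2315, 2159 and 1536 CPM in GFP cells and 16920, 16589 and 12242 CPM in DsRedx cells. No GFP library reached the lowest DsRedx library of its tissue. The means fell in the order gill DsRedx (29040 ± 2990 CPM, SD, n = 3), intestine DsRedx (15250 ± 2611), gill GFP (10926 ± 3765) and intestine GFP (2003 ± 412). Gill GFP and intestine DsRedx overlapped in range, and this pair was not tested. The second invariant chain gene, cd74b, stood at 3166, 5964 and 4749 CPM in gill GFP cells and at 5870, 12597 and 16341 CPM in gill DsRedx cells. In intestine cd74b was at 1528, 1764 and 1292 CPM in GFP cells and at 8624, 10446 and 5479 CPM in DsRedx cells. For cd74b the gill groups overlapped at a single library of each color, and the intestine groups stayed apart.

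**Figure D1:**
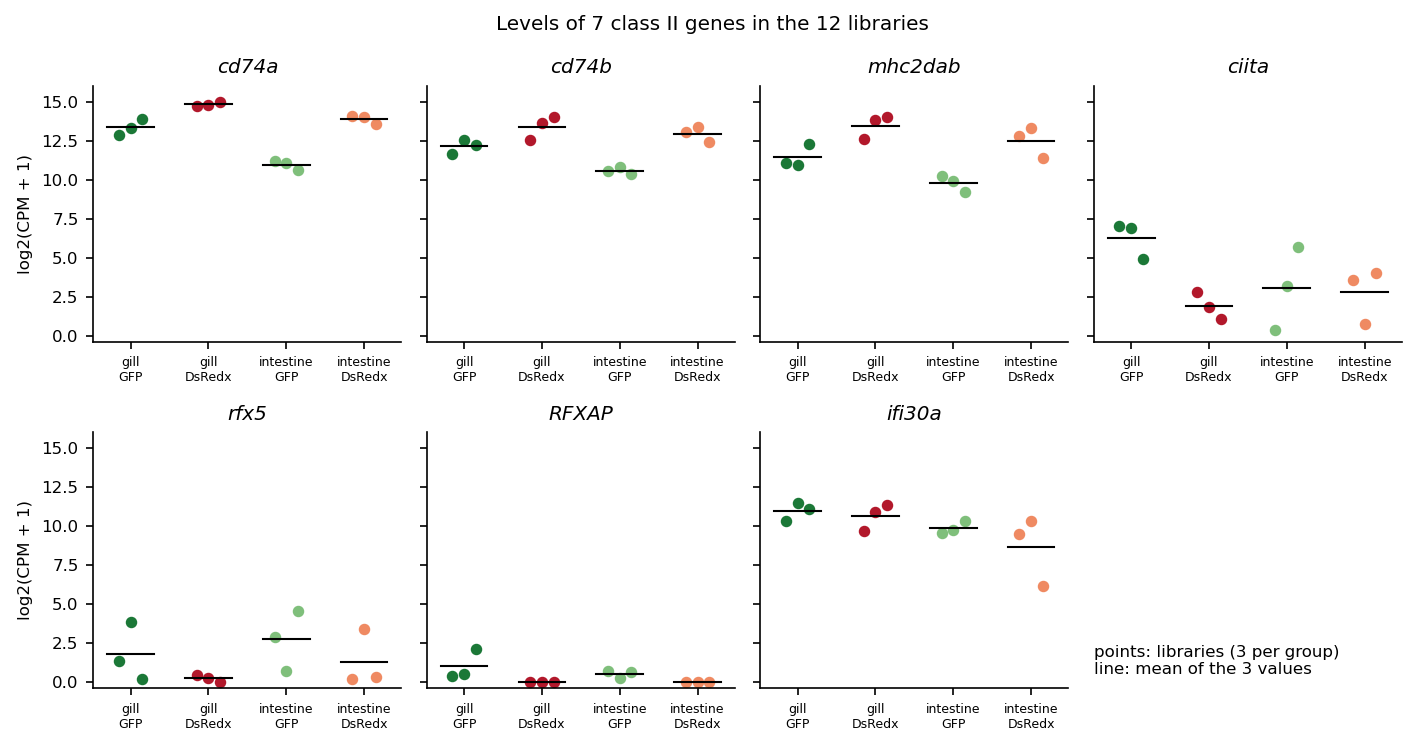
Levels of cd74a, cd74b, mhc2dab, ciita, rfx5, RFXAP and ifi30a as log2(CPM + 1), with 3 points per group for the libraries and a line at the mean of the 3 values. The invariant chain and class II chain genes are lowest in intestine GFP cells, ciita is highest in gill GFP cells, and ifi30a overlaps between the colors.

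In gill, GFP cells held lower levels of 2 and higher levels of 0 of the 6 tested genes, by the edgeR quasi-likelihood test (Benjamini-Hochberg adjustment over 10666 genes). Genes with an adjusted p under 0.05 are called here, and the background share called in that comparison was 4.59%. Background shares are those of edgeR. The numbers that DESeq2 or limma called over all genes are not given here, so their counts below have no share beside them. cd74a fell 2.66-fold (log2 fold change -1.41, SE 0.295, adjusted p = 0.00749). It was called in all 12 fits that left out 1 library, but not with a covariate for detected genes (adjusted p = 0.0659), by DESeq2 (0.0758) or by limma on log2(TPM + 1) without a filter (0.176). cd74b did not pass (log2 fold change -1.33, SE 0.39, adjusted p = 0.0553), although it did in 4 of the 12 fits that left out 1 library, those without gill DsRedx replicate 1 (0.00856) or without intestine DsRedx replicate 1 (0.0499), 2 (0.0445) or 3 (0.025). It also passed under 3 of 13 other settings: RLE scaling (0.0287), no filter on low counts (0.0121) and a replicate block (0.0281).

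In intestine both invariant chain genes were lower in GFP cells. There GFP cells held lower levels of 3 and higher levels of 0 of the 6 tested genes, against a background share of 4.12%. cd74a fell 7.61-fold (log2 fold change -2.93, SE 0.311, adjusted p = 1.03e-05), and it was called under each of the other settings run. cd74b fell 5.36-fold (log2 fold change -2.42, SE 0.404, adjusted p = 0.000913), which was lost with a covariate for detected genes (0.109). The numbers of detected genes did not overlap between the intestine colors, so that number and the color cannot be told apart there. The same limit holds for each intestine call below that was lost with this covariate. In bulk libraries fewer cells that express a gene and less RNA per cell cannot be told apart.

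Whether the color difference was larger in intestine than in gill was tested as the difference of the reporter effects. By edgeR 0 of the 6 tested genes passed, 1 had an unadjusted p under 0.05, DESeq2 called 0 and limma on log2(TPM + 1) called 1. The background share was 0.15%, and 1500 of all 10666 genes had an unadjusted p under 0.05. The gene among the 6 was cd74a, whose reporter effect differed by 1.52 on the log2 scale (SE 0.411, adjusted p = 0.156). It passed with no filter on low counts (adjusted p = 0.00313), by limma on log2(TPM + 1) (0.035) and when intestine DsRedx replicate 3, the lowest of its group, was left out (0.0457). For cd74b the difference was 1.09 (SE 0.543, adjusted p = 0.373).

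Within the GFP cells, both invariant chain genes were higher in gill. In gill GFP against intestine GFP, 2 of the 6 tested genes were higher and 0 were lower, against a background share of 2.03%. cd74a was 5.45-fold higher in gill (log2 fold change 2.45, SE 0.305, adjusted p = 7.8e-05), and no library left out removed the call. cd74b was 3.03-fold higher (log2 fold change 1.60, SE 0.393, adjusted p = 0.0361), but was called in 7 of the 12 fits that left out 1 library, losing the call without gill GFP replicate 2 (0.111) or 3 (0.0756) or without intestine GFP replicate 1 (0.0958), 2 (0.09) or 3 (0.079). With a covariate for detected genes neither was called (log2 fold change 1.55, adjusted p = 0.443 for cd74a; 0.75, adjusted p = 0.953 for cd74b), and DESeq2 (0.101) and limma on log2(TPM + 1) without a filter (0.117) did not call cd74b. The number of detected genes differed between the GFP groups with no overlap, so that number and the tissue cannot be told apart.

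In the DsRedx cells the tissue comparison gave 0 calls among the 6 tested genes by edgeR. There was 1 gene with an unadjusted p under 0.05, DESeq2 and limma on log2(TPM + 1) called 0, and the background share was 0.759%. Over all 10666 genes 2255 had an unadjusted p under 0.05. cd74a was again on the gill side with no overlap between the groups (log2 fold change 0.93, SE 0.291, adjusted p = 0.131), and it passed with no filter on low counts (0.0356). cd74b stood at a log2 fold change of 0.50 (SE 0.384, adjusted p = 0.495).

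**Figure D2:**
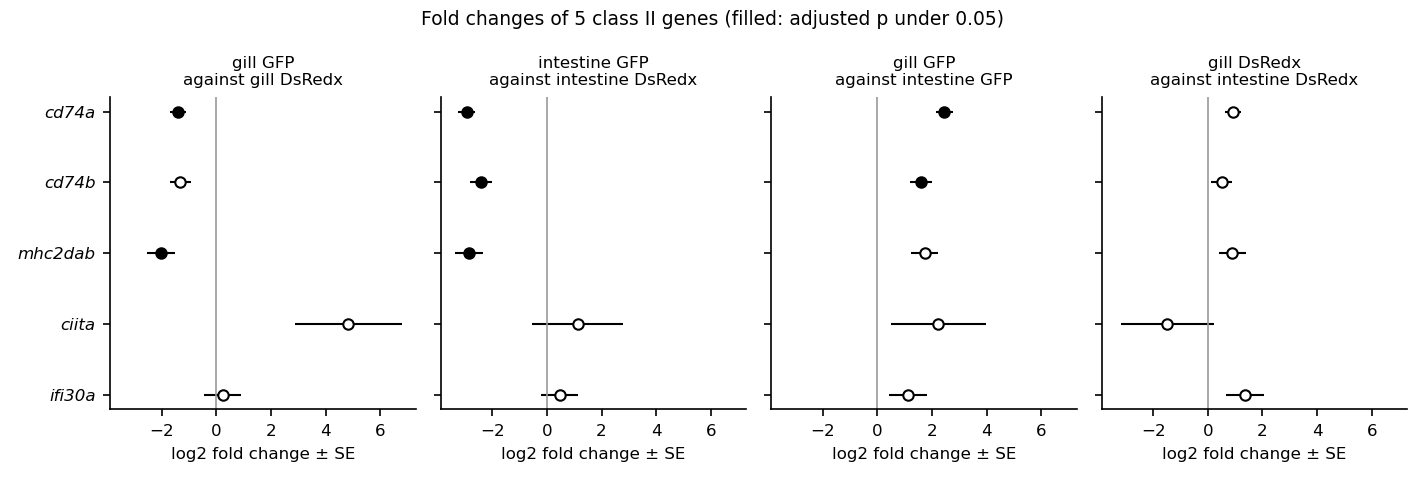
Log2 fold changes (points) with standard errors (bars) for cd74a, cd74b, mhc2dab, ciita and ifi30a in 4 comparisons; filled points have an adjusted p under 0.05. Filled points lie left of 0 for cd74a and mhc2dab in gill and for cd74a, cd74b and mhc2dab in intestine, and right of 0 for cd74a and cd74b in gill GFP against intestine GFP. rfx5 is left out because gill DsRedx libraries hold 3 counts of it.

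The class II chain gene mhc2dab was lower in the GFP cells of both tissues. This beta chain gene stood at 2119, 1983 and 4964 CPM in gill GFP cells and at 6173, 14322 and 16415 CPM in gill DsRedx cells. In intestine mhc2dab was at 1210, 950 and 579 CPM in GFP cells and at 6969, 10227 and 2614 CPM in DsRedx cells. The colors did not overlap in either tissue. It fell 4.07-fold in gill GFP cells (log2 fold change -2.03, SE 0.503, adjusted p = 0.0251) and 7.23-fold in intestine GFP cells (log2 fold change -2.85, SE 0.52, adjusted p = 0.00224). The intestine call held in all 12 fits that left out 1 library. The gill call held in 9, being lost without gill GFP replicate 1 (adjusted p = 0.0897), gill GFP replicate 2 (0.0876) or gill DsRedx replicate 3 (0.0672). With a covariate for detected genes neither was called (0.129 in gill and 0.128 in intestine), and limma on log2(TPM + 1) did not call the gill difference (0.111). Of 13 other settings, these included, the gill call held in 9, with adjusted p up to 0.296, and the intestine call in 11.

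mhc2dab did not pass between the tissues. Gill GFP libraries were all above intestine GFP libraries (log2 fold change 1.73, SE 0.498, adjusted p = 0.0822), and the call appeared when any 1 of the 6 DsRedx libraries was left out, with adjusted p from 0.00571 to 0.0462. In DsRedx cells the tissue difference was 0.90 (SE 0.488, adjusted p = 0.295). The difference of the reporter effects was 0.83 (SE 0.687, adjusted p = 0.656).

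mhc2daa (ENSDARG00000031745), the alpha chain gene of the same DA pair by its name, had the second highest total count of all chain genes. Its values were 4857, 6031 and 9170 CPM in gill GFP, 8383, 16769 and 20731 CPM in gill DsRedx libraries, 1838, 3069 and 1715 CPM in intestine GFP and 9121, 16250 and 12730 CPM in intestine DsRedx cells. The colors overlapped in gill and not in intestine. It fell 5.75-fold in intestine GFP cells (adjusted p = 0.000464) and was 3.03-fold higher in gill GFP than in intestine GFP cells (adjusted p = 0.0274), the latter call being lost without gill GFP replicate 3 (0.116) or without intestine GFP replicate 1 (0.0987) or 3 (0.0679). It was also lost with a covariate for detected genes (log2 fold change 0.97 in place of 1.60, adjusted p = 0.91), by DESeq2 (0.105) and by limma on log2(TPM + 1) without a filter (0.104). It missed the threshold between the colors in gill (adjusted p = 0.074).

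mhc2d4b (ENSDARG00000101030), a further beta chain gene by its name, passed between the colors in intestine and not in gill, while the difference of those effects did not pass (adjusted p = 0.178). It stood at 985, 797 and 1761 CPM in gill GFP cells and at 559, 1592 and 1093 CPM in gill DsRedx cells, ranges that overlapped (adjusted p = 0.944). In intestine mhc2d4b was at 186, 123 and 115 CPM in GFP cells and at 454, 733 and 1554 CPM in DsRedx cells, which did not overlap. It fell 6.46-fold in intestine GFP cells (adjusted p = 0.0144) and was 8.35-fold higher in gill GFP than in intestine GFP cells (adjusted p = 0.0106). Those calls held in 8 and 9 of the 12 fits that left out 1 library. The first was lost without intestine GFP replicate 1 (0.0521), 2 (0.102) or 3 (0.0772) or intestine DsRedx replicate 3 (0.055), and the other without gill GFP replicate 3 (0.0668) or intestine GFP replicate 2 (0.088) or 3 (0.0615). Both were lost with a covariate for detected genes (0.253 and 0.742), and limma on log2(TPM + 1) without a filter did not call the first (0.0511).

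On a scale corrected for gene length, TPM (transcripts scaled per length and library), the 4 abundant genes took a sizeable share of all transcripts. cd74a, cd74b, mhc2daa and mhc2dab together made up 3.12% to 4.57% of TPM in gill GFP libraries, 5.55% to 10.03% in gill DsRedx, 0.758% to 1.3% in intestine GFP and 3.95% to 6.79% in intestine DsRedx libraries. No group of GFP libraries overlapped with the DsRedx libraries of its tissue. The invariant chain genes together exceeded the DA chain genes together in each of the 12 libraries, by ratios of TPM from 1.29 to 2.74.

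The balance among these genes was less even. The TPM ratio of cd74a to cd74b was 1.0 to 1.27 in intestine GFP libraries and 1.34 to 1.88 in intestine DsRedx libraries, ranges that did not overlap. In gill the ratio overlapped between the colors, at 1.46 to 2.65 in GFP and 1.67 to 3.8 in DsRedx libraries. Thus intestine GFP cells held the lowest level of both genes and the most nearly equal amounts of them. The TPM ratio of mhc2daa to mhc2dab was 1.66 to 2.73 in gill GFP and 1.05 to 1.22 in gill DsRedx libraries, which did not overlap, and 1.36 to 2.9 and 1.18 to 4.37 in the intestine groups, which did. These ratios are descriptions without a test.

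**Figure D3:**
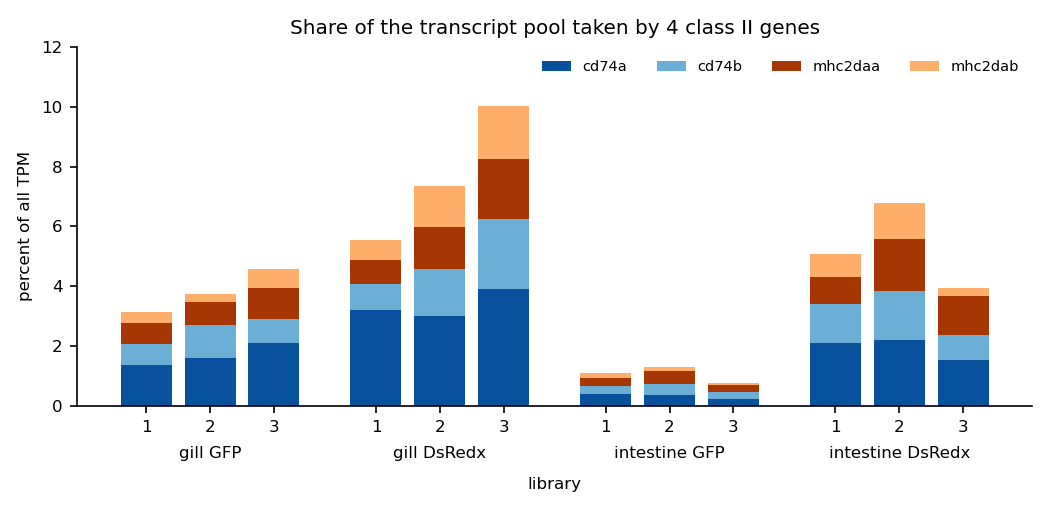
Stacked bars give the percent of all TPM in each of the 12 libraries that is taken by cd74a, cd74b, mhc2daa and mhc2dab, grouped by tissue and color. Intestine GFP libraries lie at 0.758% to 1.3% and gill DsRedx libraries at 5.55% to 10.03%.

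The levels of these genes in GFP cells, as a share of the DsRedx level, were well above those of ptprc, SPI1 and c1qc. They were not above those of every macrophage marker. In gill GFP cells cd74a averaged 37.6% of its DsRedx level, cd74b 39.9%, mhc2daa 43.7% and mhc2dab 24.6%. In intestine GFP cells the same genes averaged 13.1%, 18.7%, 17.4% and 13.8%. Beside them ptprc averaged 0.4% and 0.562%, the myeloid transcription factor gene SPI1 (ENSDARG00000000767) 0.384% and 0.777%, and the complement gene c1qc 0.314% and 0.604%. Some other genes of the macrophage list stood in GFP cells at a larger share of their DsRedx level than these 3. LCP1 had means of 1799.5 CPM in gill GFP and 1843 CPM in gill DsRedx cells, and 1307 and 2062 CPM in intestine. MPEG1 (ENSDARG00000055290) had 351 and 1538.5 CPM in gill and 264 and 1815 CPM in intestine. A further MPEG1 identifier (ENSDARG00000043093) was low in GFP cells, with 0.492 and 117 CPM in gill and 1.31 and 22.9 CPM in intestine. All cells were sorted by a reporter under the mpeg1 promoter. The 19 tested identifiers of that list had median log2 fold changes of -7.65 in gill and -7 in intestine. With 1% of the other color's mean taken off each count, the numbers called among the 6 tested genes were the same in all 5 comparisons. As cd74a, cd74b and mhc2dab averaged 13.1% or more, taking off 1% could hardly change their calls. The unchanged numbers therefore do not bear on the source of these reads, which was not tested. B cells are another source of class II transcripts. Of the 11 genes listed for them, PAX5 and RAG2 had 0 counts in all libraries. In contrast, ighm reached 153 counts in gill DsRedx replicate 1 and 582 in intestine DsRedx replicate 1. cd22 reached 699 in gill DsRedx replicate 3 and 461 in intestine DsRedx replicate 2. In GFP libraries ighm and cd22 had at most 5 counts. cd79a went the other way in gill, with 91 counts over gill GFP libraries, 90 of them in a single library, and 7 over gill DsRedx libraries. In intestine cd79a had 8 counts over GFP and 35 over DsRedx libraries. The list of 11 genes summed to 37.9 to 86.7 CPM in gill GFP, 156 to 350 in gill DsRedx, 104 to 213 in intestine GFP and 237 to 388 CPM in intestine DsRedx libraries, most of it from blnk, a signalling adaptor gene. Without blnk the sums were 0 to 9.88, 1.22 to 96.9, 0.26 to 1.05 and 4.82 to 100.5 CPM. The list of 8 dendritic cell genes summed to 1540 to 1980, 3320 to 7600, 1160 to 1570 and 1580 to 7680 CPM in the same order. cd83 made up most of each group's level, with means of 1745, 3570, 1177 and 3273 CPM, and ID2 was next in the DsRedx groups (1046 CPM in gill and 308 CPM in intestine). HEPACAM2 had means of 26.8, 351, 91.4 and 139 CPM in the same order. siglec15l averaged 276 CPM in gill DsRedx cells, with 4695 of its 4779 counts there in 1 library. Its mean was 0.829 CPM in gill GFP cells, and it had 0 counts in both intestine groups. flt3, BATF3 and ZBTB46 had group means of at most 14.3 CPM except flt3 in intestine DsRedx cells (63.3 CPM), and CCR7 had 1 count in all. The part of these cells in the result was not tested.

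**Figure D4:**
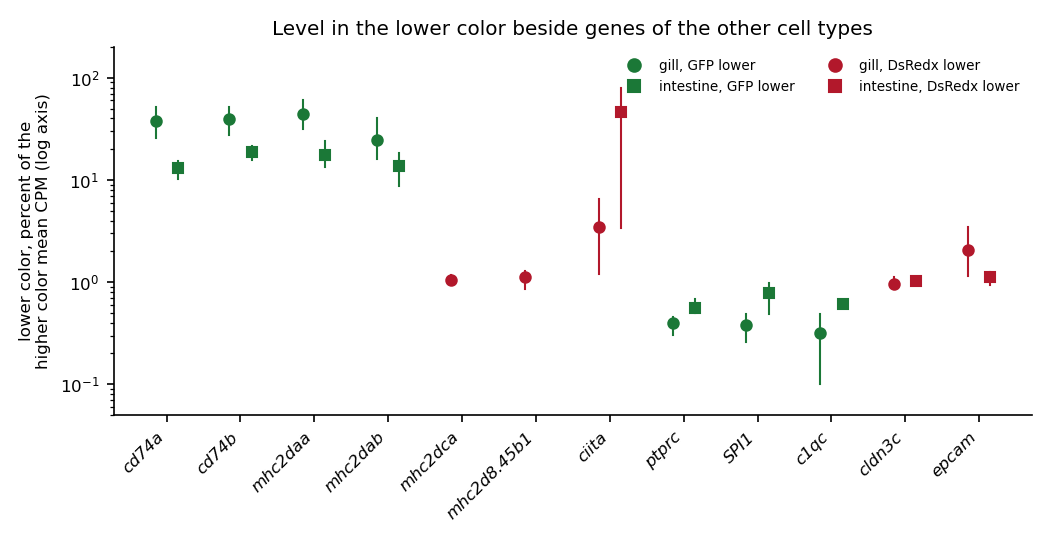
For each gene the level in the lower color is given as a percent of the mean CPM in the higher color of the same tissue, on a log axis, with points at the mean of 3 libraries and lines from the lowest to the highest. cd74a, cd74b, mhc2daa and mhc2dab lie between 8.76% and 60% in GFP cells, while ptprc, SPI1 and c1qc lie under 1%. Macrophage markers at a larger share of their DsRedx level in GFP cells, such as LCP1, are not drawn. mhc2dca and mhc2d8.45b1 in gill DsRedx cells lie near the level of cldn3c.

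A further set of chain genes was read in gill and not in intestine. mhc2dca (ENSDARG00000114601), an alpha chain gene by its name, had 1274, 1179 and 769 counts in gill GFP libraries, 7, 8 and 12 counts in gill DsRedx libraries and 0 counts in all 6 intestine libraries. mhc2d8.45b1 (ENSDARG00000041705), a beta chain gene by its name, had 367, 2800 and 775 counts in gill GFP, 12, 9 and 17 in gill DsRedx and 0 in all 6 intestine libraries. In the RefSeq gene order of zebrafish (assembly GRCz12tu) these genes lie on the same chromosome with 2 genes between them. In gill DsRedx cells mhc2dca averaged 1.04% and mhc2d8.45b1 1.12% of the gill GFP level, beside 0.957% for cldn3c.

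Both genes were called higher in gill GFP than in intestine GFP cells, mhc2dca at least 1670-fold (adjusted p = 0.00562) and mhc2d8.45b1 at least 2040-fold (adjusted p = 0.00398), with the intestine level set at 3 counts over the group. The call of mhc2d8.45b1 was lost without gill GFP replicate 2 (adjusted p = 0.0663), its highest library, and its bound was then at least 856-fold, or at least 3140-fold without replicate 1, a check made after the data were seen. Neither was called with a covariate for detected genes (0.12 for mhc2dca and 0.244 for mhc2d8.45b1). Both genes passed the filter only because of gill GFP libraries. The comparison of the GFP groups could thus only place them higher in gill, and that of the gill colors only higher in GFP cells. Against gill DsRedx cells mhc2dca was higher by 6.57 on the log2 scale (SE 1.82, adjusted p = 0.0495) and mhc2d8.45b1 by 6.47 (SE 1.75, adjusted p = 0.0451). Those calls stood close to the threshold and were lost with that covariate (0.097 and 0.0686), a replicate block (0.0877 and 0.112), RLE scaling (0.0611 and 0.0562) or a robust fit (0.0689 and 0.0565): that of mhc2dca held in 1 and that of mhc2d8.45b1 in 3 of the 12 fits that left out 1 library, although the groups did not overlap. Leaving out any gill library or any intestine GFP library ended both, with adjusted p from 0.0733 to 0.15 for mhc2dca and from 0.0614 to 0.213 for mhc2d8.45b1, and mhc2dca was also lost without intestine DsRedx replicate 1 (0.0511) or 2 (0.0543). Of 13 other settings, the call of mhc2dca against gill DsRedx cells held in 8 and that of mhc2d8.45b1 in 9.

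Other chain genes were patchy between libraries. mhc2dbb (ENSDARG00000056330) had 574, 333 and 1 counts in gill GFP and 96, 3 and 528 in gill DsRedx libraries, and 0 in all 6 intestine libraries. It was not called in gill GFP against intestine GFP (adjusted p = 0.092). mhc2d8.46a (ENSDARG00000075932) had 162, 207 and 380 counts in gill GFP libraries, 2, 4 and 3 in gill DsRedx, 14, 1 and 406 in intestine GFP and 0 in intestine DsRedx libraries. Its colors did not overlap in either tissue, but the tests did not pass (adjusted p = 0.134 in gill and 0.0895 in intestine). The remaining tested chain genes were called in no comparison. Their lowest and highest counts follow for gill GFP, gill DsRedx, intestine GFP and intestine DsRedx libraries. mhc2bl had 613 to 1021, 666 to 5234, 9 to 171 and 9 to 645. mhc2dhb had 77 to 592, 98 to 816, 11 to 243 and 90 to 1079. mhc2d8.35a1 had 258 to 843, 17 to 470, 0 to 65 and 2 to 304. mhc2d8.37a2 had 13 to 465, 1 to 40, 3 to 484 and 3 to 540. Chain genes of this family have near-identical copies, and the sources used here do not give how reads shared between copies were counted, so the split between family members is uncertain.

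Over the 13 tested chain genes, invariant chain included, 2 were higher and 2 lower in gill GFP than in gill DsRedx cells, and 0 were higher and 5 lower in intestine. In gill GFP against intestine GFP, 6 were higher and 0 lower. The background shares called were 4.59%, 4.12% and 2.03% in the same order. The median log2 fold changes of the 13 were 0.127, -2.42 and 2.45, beside 0, 0.0801 and -0.225 over all tested genes. Of the 13, 3 had 0 counts in all 6 intestine libraries and passed the filter through gill alone. In gill GFP against intestine GFP these could only come out higher, and mhc2dca and mhc2d8.45b1 are among the 6 called. Those 2 genes are also the 2 called higher between the gill colors. They passed the filter only because of gill GFP libraries, so there too they could only come out higher. The median of 2.45 includes such genes. In gill DsRedx against intestine DsRedx edgeR called 0 and DESeq2 called 4, with 5 at an unadjusted p under 0.05. For the difference of the reporter effects edgeR called 0 and DESeq2 2, with 3 at an unadjusted p under 0.05. Over all 10666 genes 2255 between the DsRedx groups and 1500 for the difference had an unadjusted p under 0.05. Of the 5 identifiers not tested, mhc2dga had 0 counts in every library.

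**Figure D5:**
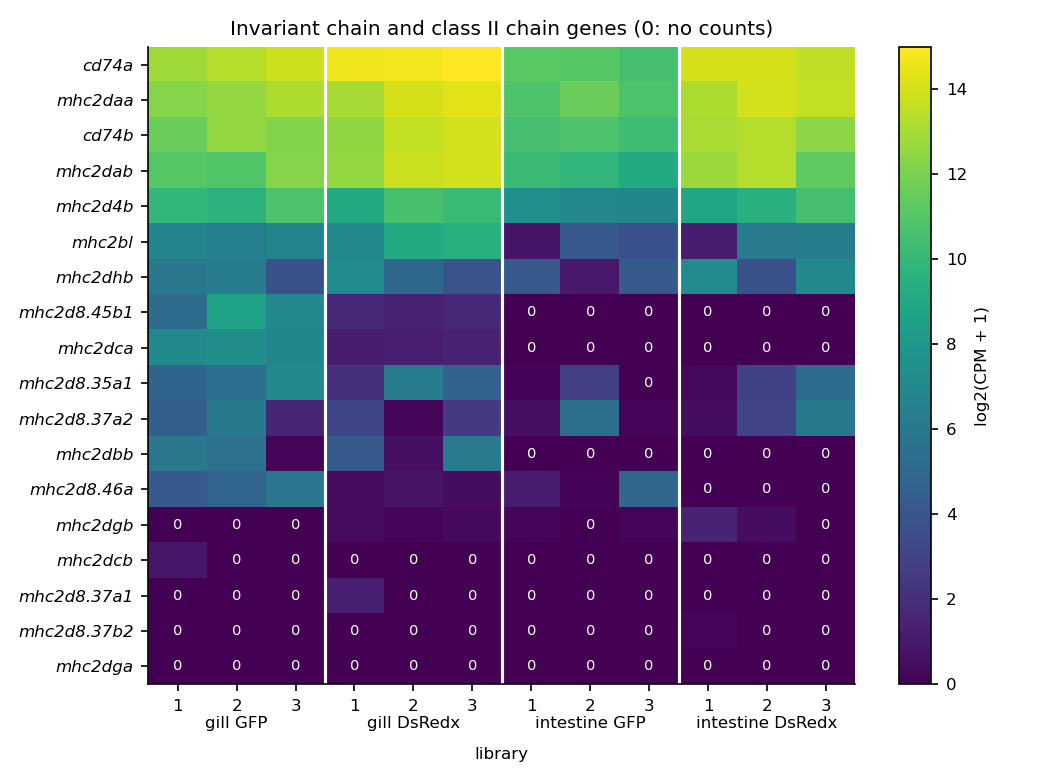
Rows are the 18 identifiers with a cd74 or mhc2 symbol in order of total count, columns are the 12 libraries by group, and color is log2(CPM + 1), with 0 written where no count was read. mhc2d8.45b1, mhc2dca and mhc2dbb have 0 counts in all 6 intestine libraries.

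The regulators were low, and the highest mean of ciita was in gill GFP cells. ciita stood at 128, 117 and 29.4 CPM in gill GFP cells and at 5.93, 2.61 and 1.1 CPM in gill DsRedx cells, without overlap. In intestine ciita was at 0.26, 8.13 and 50.4 CPM in GFP cells and at 10.9, 0.664 and 15.4 CPM in DsRedx cells, which overlapped. The gill means were 91.7 ± 54.3 and 3.21 ± 2.47 CPM (SD, n = 3), a log2 fold change of 4.83 with an SE of 1.95 that did not pass over all genes (adjusted p = 0.128). It was called by DESeq2 (adjusted p = 0.00944) and in 0 of the 12 fits that left out 1 library. In gill DsRedx cells, the group with the highest cd74a level, ciita had 31, 15 and 8 counts. As a percent of the gill GFP mean this was 3.5% on average, with a range of 1.2% to 6.46%. Beside it cldn3c averaged 0.957% (0.85% to 1.11%) and the epithelial gene epcam 2.04% (1.14% to 3.5%).

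In the other comparisons ciita had wide errors. Its log2 fold change was 1.12 (SE 1.68, adjusted p = 0.81) between the colors of intestine, 2.23 (SE 1.74, adjusted p = 0.668) in gill GFP against intestine GFP, -1.48 (SE 1.70, adjusted p = 0.693) between the DsRedx groups and 3.71 (SE 2.43, adjusted p = 0.517) for the difference of the reporter effects. The intestine GFP libraries ranged from 3 to 687 counts, and without the highest of them, replicate 3, the color difference in intestine changed sign to -1.33 (adjusted p = 0.815).

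The RFX complex genes were low and patchy between libraries. rfx5 had 15, 97 and 1 counts in gill GFP, 2, 1 and 0 in gill DsRedx, 74, 7 and 311 in intestine GFP and 1, 73 and 2 in intestine DsRedx libraries. It was not called between the colors of gill (adjusted p = 0.227) or intestine (log2 fold change 1.57, SE 2.28, adjusted p = 0.801), in gill GFP against intestine GFP (-0.95, SE 2.25, adjusted p = 0.949) or between the DsRedx groups (adjusted p = 0.377). RFXAP had 3, 3 and 21 counts in gill GFP and 7, 2 and 8 in intestine GFP libraries, and 0 in all 6 DsRedx libraries, too few to be tested. At this depth a count of 0 in DsRedx libraries does not show absence. RFXANK (ENSDARG00000016730), the remaining subunit, went by tissue: 13, 0 and 0 counts in gill GFP and 0 in gill DsRedx libraries, but 266, 64 and 278 in intestine GFP and 296, 2 and 118 in intestine DsRedx libraries. It was called in no comparison, with adjusted p of 0.373 between the GFP groups and 0.147 between the DsRedx groups.

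Among 20 tested genes of class II transcription, a list of 24 identifiers that includes ciita, the RFX subunits and interferon signalling genes, 0 were higher and 2 lower in gill GFP cells and 0 were higher and 3 lower in intestine GFP cells. Background shares called were 4.59% in gill and 4.12% in intestine. The genes lower in both tissues included leukocyte regulators. SPI1 stood at 1.41 to 2.64 CPM in gill GFP and 105 to 1052 CPM in gill DsRedx libraries (adjusted p = 0.0003), and at 1.44 to 2.86 and 74.3 to 492 CPM in intestine (adjusted p = 0.000612). IRF8, a factor of macrophage and dendritic cell development, was at 0.564 to 17 CPM in gill GFP and 109 to 316 CPM in gill DsRedx libraries (adjusted p = 0.034), and at 0.383 to 1.61 and 71.7 to 348 CPM in intestine (adjusted p = 0.00337). The gill call of IRF8 held in 7 of the 12 fits that left out 1 library and in 10 of 13 other settings. Among the losses was the covariate for detected genes (0.0547). Neither tissue comparison nor the difference of the reporter effects gave a call by edgeR in this list, where 1, 2 and 0 genes had an unadjusted p under 0.05 and DESeq2 called 0, 2 and 0. Over all 10666 genes 1685, 2255 and 1500 had an unadjusted p under 0.05 in the same order. The list's median log2 fold change between the colors was -0.252 in gill and -0.503 in intestine.

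ifi30a encodes the homologue of the thiol reductase that opens disulfide bonds of antigens in endosomes. It was abundant in both colors. Its values were 1256, 2847 and 2179 CPM in gill GFP, 811, 1899 and 2661 CPM in gill DsRedx libraries, 739, 875 and 1283 CPM in intestine GFP and 736, 1297 and 71.5 CPM in intestine DsRedx libraries. All color and tissue pairs overlapped. The log2 fold change between the colors was 0.23 in gill (SE 0.685, adjusted p = 0.894) and 0.46 in intestine (SE 0.686, adjusted p = 0.807), and in each tissue its sign changed when a single library was left out. Between the tissues ifi30a stood at 1.12 in GFP cells (SE 0.693, adjusted p = 0.516) and 1.35 in DsRedx cells (SE 0.697, adjusted p = 0.267), and the difference of the reporter effects was -0.24 (SE 0.969, adjusted p = 0.998).

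The proteases that trim antigens and the invariant chain were lower in GFP cells where they were called between the colors. Background shares called between the colors were 4.59% in gill and 4.12% in intestine. Of 17 tested genes of endosomal processing 0 were higher and 3 lower in gill GFP cells, and 0 were higher and 4 lower in intestine GFP cells, with medians of -1.76 and -1.93. In intestine these were LGMN, the asparaginyl endopeptidase (205 to 656 CPM in GFP against 3853 to 7717 CPM in DsRedx cells, 14.6-fold, adjusted p = 0.000255), and ctss2.1, a cathepsin S gene (58.3 to 74.5 against 1458 to 2359 CPM, 27.9-fold, adjusted p = 0.000126). CTSB fell 8.39-fold (adjusted p = 0.00117) and CTSD 8.75-fold (adjusted p = 0.0321). In gill CTSB fell 3.89-fold (adjusted p = 0.0295), CTSD 7.09-fold (adjusted p = 0.0481) and CTSZ 11.1-fold (adjusted p = 0.016). Those 3 gill calls held in 7, 3 and 9 of the 12 fits that left out 1 library, and the intestine call of CTSD in 7. Of 13 other settings the gill calls held in 7, 7 and 9, and the intestine call of CTSD in 11. With a covariate for detected genes these 3 were not called in gill (adjusted p = 0.155 for CTSB, 0.201 for CTSD and 0.132 for CTSZ), and in intestine neither was CTSB (log2 fold change -2.37, adjusted p = 0.113) nor CTSD, whose log2 fold change moved from -3.13 to -0.65 (adjusted p = 0.84). Of the list DESeq2 called 7 genes in gill and 8 in intestine, and limma on log2(TPM + 1) called 0 and 6. At an unadjusted p under 0.05 edgeR had 7 and 11, beside 3185 and 2572 over all 10666 genes. These counts take in both directions. ctsl.1, a cathepsin L gene by its name, was not called by edgeR but stood higher in GFP cells. It was at 68.5 to 527 CPM against 3.03 to 5.44 CPM in intestine. In gill it was at 0.213 to 108 CPM against 0.174 to 0.69 CPM.

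Between the GFP groups the processing genes split. By edgeR 1 of the 17 was higher and 1 lower in gill GFP cells, against a background share of 2.03%. ctss2.1 was 8.58-fold higher in gill GFP cells, at 235, 934 and 528 CPM against 65.1, 58.3 and 74.5 CPM in intestine GFP cells (adjusted p = 0.0063), and lost the call without intestine GFP replicate 2 (0.0579) and with a covariate for detected genes, where its log2 fold change moved from 3.10 to 1.07 (0.953). ctsbb, a cathepsin B gene, had 0, 1 and 0 counts in gill GFP libraries and 1172, 2439 and 1262 in intestine GFP libraries (adjusted p = 0.00348, but 0.435 with that covariate). It passed the filter only because of intestine libraries, so the comparison of the GFP groups could only place it lower in gill. In gill DsRedx libraries ctsbb had 5, 19 and 1 counts and in intestine DsRedx libraries 732, 153 and 2708, so that its low level went with gill in both colors. In gill DsRedx against intestine DsRedx edgeR called 0 of the 17 genes, with 2 at an unadjusted p under 0.05 and 1 called by DESeq2. For the difference of the reporter effects edgeR called 0, with 3 at an unadjusted p under 0.05 and 1 called by DESeq2. Over all 10666 genes 2255 between the DsRedx groups and 1500 for the difference had an unadjusted p under 0.05.

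Among 15 tested genes of class II trafficking and turnover, AP2S1, a subunit of the clathrin adaptor, was the single call of edgeR, in gill GFP against gill DsRedx, where the background share is 4.59%. There 4 of the 15 had an unadjusted p under 0.05 and DESeq2 called 4. Over all 10666 genes 3185 had an unadjusted p under 0.05 in that comparison. AP2S1 was at 69.2, 231 and 250.04 CPM in gill GFP and 1.53, 2.26 and 1.79 CPM in gill DsRedx libraries (adjusted p = 0.00581), and it was called in all 12 fits that left out 1 library. In intestine AP2S1 was at 259, 201 and 114 CPM in GFP and 3.31, 94.8 and 58.2 CPM in DsRedx libraries. In each of the other 4 comparisons edgeR called 0 of the 15, with 1 at an unadjusted p under 0.05 and 1 called by DESeq2. Over all 10666 genes the unadjusted counts there were 2572 (intestine colors), 1685 (GFP groups), 2255 (DsRedx groups) and 1500 (difference of the reporter effects).

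The profile of cd74a over the 12 libraries was compared with 2746 genes of at least 50 CPM on average, by the root mean square difference of log2 CPM centred on each gene's mean. The 3 nearest genes were cd74b (0.525 log2 units), mhc2dab (0.535) and mhc2daa (0.557), followed by the histone demethylase gene KDM6B (0.6) and the nuclear receptor gene NR4A2 (0.614). mhc2d4b ranked 19 and ifi30a ranked 917, at 1.84. These distances are descriptions over libraries that share 4 group means.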

How the data were processed

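RNA-seq of sorted zebrafish cells, 12 libraries in 4 groups of 3, was analysed from the authors' deposited tables. The deposited counts are raw whole numbers per gene and the deposited TPM values are scaled per length and per library by the authors. Per the submitters' processing notes STAR, featureCounts and the danRer11 build were used. The sources used here give no versions, strandedness or handling of shared reads. Count and TPM tables held the same measurement within 4.4e-08 on the log scale over 4982 genes.

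Genes passing filterByExpr (10666) were fitted in edgeR 4.0.16 with TMM scaling, 1 mean per group over all 12 libraries (8 residual degrees of freedom) and a quasi-likelihood F test. Calls have an adjusted p under 0.05 (Benjamini-Hochberg, all genes tested in that comparison). CPM values use the TMM-adjusted library sizes. The code was tested on simulated data.

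The genes and lists were chosen with earlier results of these data known. All 7 matched genes are named. For each list up to 4 called genes were named by adjusted p, or, with none called, the 2 most abundant, and 5 genes nearest to cd74a. 1 called list gene is not reported here. ifi30 was matched as ifi30a by a RefSeq synonym. Symbols came from the gene name table and RefSeq. Alternatives were other scalings, filters, a robust fit, a block for replicate number, the number of detected genes as covariate, only the groups compared, DESeq2 1.42.0, limma 3.58.1 on log2 TPM with pseudocounts of 1 and 0.1, removal of 1% of the other color's mean, and each library left out.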

Additional observations from a re-analysis of the deposited data

How the results depend on the processing

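The numbers of class II genes called moved with several settings. With a covariate for detected genes 0 (gill colors), 1 (intestine colors) and 0 (GFP groups) were called, against 2, 3 and 2. In gill limma on log2(TPM + 1) and log2(TPM + 0.1) called 1 and limma without a filter 0. In the GFP groups DESeq2 and limma without a filter called 1. With no filter on low counts 1 was called between the DsRedx groups and 1 for the difference of the reporter effects, where limma on log2(TPM + 1) also called 1. Fits that left out 1 library called 1 to 3 (gill), 3 (intestine), 1 to 3 (GFP groups), 0 (DsRedx groups) and 0 to 1 (difference). In that order these fits called 231 to 492, 181 to 543, 96 to 273, 35 to 83 and 1 to 17 of all genes. The other settings together called 236 to 2618, 132 to 1876, 18 to 1092, 3 to 1639 and 0 to 834. The edgeR test called 490, 439, 217, 81 and 16. Calls over all genes thus moved with the settings too, and the number for each setting is not given here.

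Deviations of same-numbered libraries correlated at -0.0344 to 0.0418 over 18 pairs. Those of differently numbered libraries correlated at -0.0368 to 0.0464 over 36 pairs, a similar range. The correlation that true pairing would give between libraries of so few cells is not known. The check therefore does not decide whether libraries are paired by replicate number. With a block for the number 3, 3, 3, 0 and 0 genes were called.

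Over the class II genes 15 fold changes of 737 changed sign, none of them a call. ifi30a did so between the gill colors without gill GFP replicate 2 (-0.05) or gill DsRedx replicate 1 (-0.15), between the intestine colors without intestine DsRedx replicate 3 (-0.26), between the GFP groups with the covariate (-0.018), and for the difference of effects with a filter of 10 CPM in 3 libraries (0.014) and without gill GFP replicate 1 (0.03), gill DsRedx replicate 3 (0.33), intestine GFP replicate 3 (0.23) or intestine DsRedx replicate 3 (0.50). Without intestine GFP replicate 3 ciita (-1.33) and rfx5 (-0.10) turned between the intestine colors and rfx5 (0.77) between the GFP groups. rfx5 also turned for the difference of effects with the block (-1.05) and without intestine DsRedx replicate 2 (-0.87), and cd74b between the DsRedx groups with the covariate (-0.12). The fits that left out 1 library otherwise reached 0.61, 1.26 and -1.03 for ifi30a (gill colors, intestine colors, difference), 1.70 for ciita (intestine colors), and 5.59, -3.48 and 4.78 for rfx5 (intestine colors, GFP groups, difference). The cause was not tested.

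RLE scaling moved the median of all genes by -0.203 between the intestine colors, 0.253 between the GFP groups and 0.259 between the DsRedx groups, and upper-quartile scaling moved the intestine colors by 0.185, the DsRedx groups by 0.115 and the difference by -0.18; cd74a kept its sign under both. Higher and lower calls over all genes were 177 and 268 in gill under RLE against 244 and 246, 21 and 28 between the DsRedx groups against 24 and 57, and 4 and 11 for the difference under upper-quartile scaling against 6 and 10. With 3 libraries of 30 to 50 cells a group, genes under about 10 CPM such as rfx5 and RFXAP cannot be compared.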

Other observations

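The class I pathway, which displays peptides from inside the cell to CD8 T cells, gave 0 calls among 28 tested genes in each of the 5 comparisons by edgeR. At an unadjusted p under 0.05 there were 4, 2, 7, 4 and 1 genes, for the colors in gill, the colors in intestine, the GFP groups, the DsRedx groups and the difference of the reporter effects, and DESeq2 called 3, 2, 5, 3 and 0. Over all 10666 genes 3185, 2572, 1685, 2255 and 1500 had an unadjusted p under 0.05 in the same order. The class I medians were -0.294 in gill and -0.137 in intestine between the colors, on the log2 scale, and 0.582 in gill GFP against intestine GFP. b2m, the light chain of class I, stood at 2693, 4418 and 1302 CPM in gill GFP, 2568, 5954 and 3232 CPM in gill DsRedx libraries, 1100, 1033 and 1191 CPM in intestine GFP and 2290, 2037 and 1329 CPM in intestine DsRedx libraries. The class I chain gene mhc1zba had the next highest mean level.

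Of the co-stimulation list 3 genes were tested and edgeR called 0 in each of the 5 comparisons. At an unadjusted p under 0.05 stood 1, 1, 0, 0 and 0 genes, and DESeq2 called 0. Over all 10666 genes the unadjusted counts were 3185, 2572, 1685, 2255 and 1500. cd83, a surface protein of activated antigen-presenting cells, was at 1882, 1410 and 1944 CPM in gill GFP, 5726, 2784 and 2200 CPM in gill DsRedx libraries, 1099, 960 and 1473 CPM in intestine GFP and 1097, 1808 and 6914 CPM in intestine DsRedx libraries. cd40, the receptor for T cell help, was at 1.56 to 142 CPM in gill GFP, 45.9 to 195 CPM in gill DsRedx, 6.77 to 150 CPM in intestine GFP and 29.8 to 182 CPM in intestine DsRedx libraries.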
